A study of Saccharomyces cerevisiae with 6 samples.

Results

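The 9 genes described here encode the enzymes that cut and rejoin the glucan of the budding yeast cell wall: the GAS family of glucanosyltransferases (GAS1 to GAS5), the CRH family that links chitin to glucan (CRH1, UTR2 and CRR1), and BGL2. They were chosen by name, and all 9 were found among the 5449 yeast genes measured, each on 1 probe set. Transcript signal was compared between vps1 deletion cells, the strain labelled Y05072, and wild type cells of strain BY4741, with 3 Affymetrix arrays of separate cultures per strain. Both were cultured in supplemented minimal medium at 30 degrees, with no treatment named in the labels. The labels name 1 deletion strain and give no second clone or complemented strain. VPS1 encodes a dynamin-like GTPase that acts in vacuolar protein sorting, endocytosis and peroxisome division, and the comparison asks what changes in transcript level when it is missing.

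The yeast wall is a mesh of beta-1,3-glucan to which beta-1,6-glucan, chitin and mannoproteins are attached. Plasma membrane synthases extrude linear beta-1,3-glucan, and Gas proteins, which are GPI-anchored at the cell surface, cut such a chain and join the piece to another, so that chains grow longer and branch. Crh proteins cut chitin and transfer the end to glucan, and Bgl2 is an abundant glucanase and transferase of the wall that carries no GPI anchor. GAS1, GAS3, GAS5, CRH1, UTR2 and BGL2 are known from vegetative cells, while GAS2, GAS4 and CRR1 are known for the spore wall. CRH1 is also known as a target of the cell wall integrity pathway, whose kinase Slt2 acts on the transcription factor Rlm1.

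Signals are log2 values per probe set after quantile normalization over the 6 arrays, called the quantile scale below. As deposited, the vps1 deletion arrays lay higher than the wild type arrays throughout, by a median of 0.51 over all genes and 0.48 over 1746 probe sets whose names are not in the yeast gene table, and changes are given relative to that shift. The median difference of all genes on the quantile scale was -0.04. The VPS1 probe set read 2.54, 2.40 and 2.23 in the vps1 deletion arrays and 10.32, 9.98 and 9.95 in the wild type arrays, and was below the background level on each deletion array, at least 91.5-fold lower (limma adjusted p = 1.65e-07). That level was set on each array at the 95th percentile of those 1746 probe sets, and was 3.53 to 3.59. All 9 remodelling genes were above it on all 6 arrays.

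CRH1 and CRR1 rose in the vps1 deletion strain and UTR2 and GAS3 fell, so that the CRH family moved in both directions, and GAS1, the main vegetative glucanosyltransferase, differed little. Of the 9 genes, 2 rose, 2 fell and 5 did not pass the test, which was limma's moderated test with an adjusted p over all genes under 0.05. Of all genes, 13.0% passed, 6.77% higher and 6.28% lower. The median difference of the 9 was 0.05. In 6 of the 9 the arrays of the strains did not overlap, as in 33.9% of all genes. Both rises were larger in size than either fall, and they passed under all 14 alternatives in scaling, filter and fit. The falls of UTR2 and GAS3 each lost the call under some of these, among them the values as deposited. The RNA came from whole cultures, so fewer cells with a transcript and less of it per cell cannot be told apart, and a change shared by most genes does not appear on this scale.

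**Figure D1:**
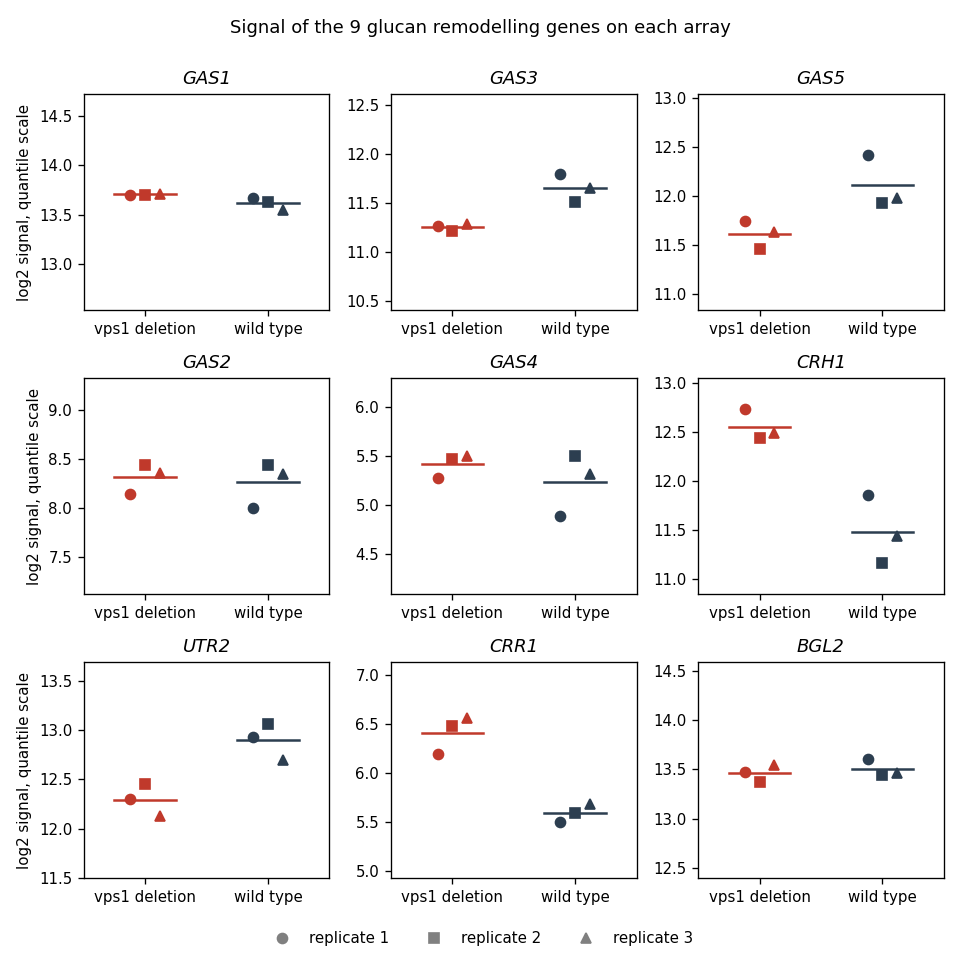
Log2 signal on the quantile scale (y axis) of each of the 9 genes on each array, vps1 deletion left and wild type right; horizontal lines are means of 3 arrays and marker shapes give the replicate number. Every panel spans the same number of log2 units around its own centre. The arrays of the strains are fully apart for GAS1, GAS3, GAS5, CRH1, UTR2 and CRR1, with the widest gap between means for CRH1.

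CRH1, a chitin-glucan transglycosylase of growing cells, had the largest change. It read 12.73, 12.44 and 12.49 in the vps1 deletion arrays, against 11.85, 11.17 and 11.43 in the wild type arrays. Every deletion array lay above every wild type array. The difference was 1.07 ± 0.18 (log2, SE, n = 3 per strain), a 2.10-fold higher signal (limma adjusted p = 0.00906). It was the 105th highest difference of the 5449 genes. The wild type arrays were more spread than those of most genes, with an SD of 0.347 where the median gene had 0.153, and the deletion arrays had an SD of 0.155. Between arrays of the same replicate number the difference was 0.88, 1.27 and 1.06, positive in 3 of 3. CRH1 passed the test under all 14 alternatives tried.

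UTR2, also called CRH2 and likewise a chitin-glucan transglycosylase of vegetative cells, changed the other way. Its signal was 12.30, 12.45 and 12.13 in the vps1 deletion arrays, and 12.93, 13.06 and 12.70 in the wild type arrays. The groups did not overlap, with each wild type array above all deletion arrays. UTR2 fell by 0.60 ± 0.13 (log2, SE, n = 3 per strain), which left 0.658 of the wild type signal (limma adjusted p = 0.0246). The difference was -0.63, -0.61 and -0.57 between arrays of the same number. The call was lost without vps1 deletion replicate 1 (adjusted p = 0.0807), vps1 deletion replicate 3 (0.0966) or wild type replicate 2 (0.0875), where the difference stayed between -0.61 and -0.52. On the deposited values UTR2 differed by -0.08 ± 0.12, beside the median of 0.51 of all genes.

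The opposite changes of CRH1 and UTR2 were set against each other within each array. CRH1 minus UTR2 was between -0.01 and 0.43 in the vps1 deletion arrays and between -1.90 and -1.08 in the wild type arrays. The difference in change was 1.67 ± 0.28 (log2, SE), and an exact 2-sided permutation test gave p = 0.1, the smallest that 3 against 3 arrays allow (adjusted p = 0.133 over the 4 pairs compared). A shift common to all probe sets of an array cancels in it, and on the deposited values it was also 1.67. The value concerns the unequal change of 2 probe sets, and their levels are not compared.

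**Figure D2:**
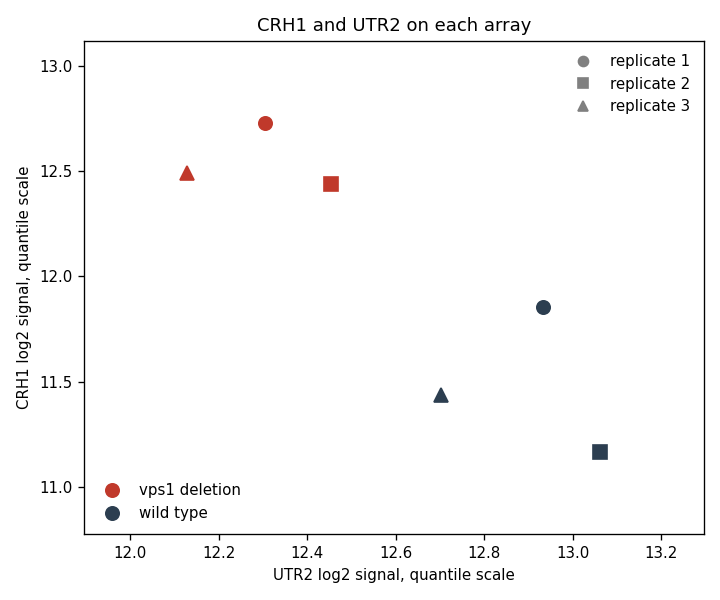
CRH1 signal (y axis) against UTR2 signal (x axis), both log2 on the quantile scale, 1 point per array, coloured by strain and shaped by replicate number. The 3 vps1 deletion arrays lie at the upper left, with CRH1 from 12.44 to 12.73 and UTR2 from 12.13 to 12.45, and the 3 wild type arrays at the lower right.

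CRR1, the spore wall member of the CRH family, was called with the smallest p of the 9 genes. It had signals of 6.20, 6.48 and 6.56 in the vps1 deletion arrays and of 5.50, 5.60 and 5.69 in the wild type arrays. These values are low on the array scale, with the array closest to the background level 1.91 above it. No deletion array reached down to a wild type array. CRR1 rose by 0.82 ± 0.12 (log2, SE, n = 3 per strain), 1.76-fold (limma adjusted p = 0.00506), the 187th highest difference of all genes. By replicate number the difference was 0.70, 0.88 and 0.88. CRR1 too passed under all 14 alternatives.

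GAS1 and BGL2, both major wall enzymes of growing cells, did not pass the test, and their differences were small. GAS1 read 13.70, 13.70 and 13.71 in the vps1 deletion arrays and 13.67, 13.63 and 13.54 in the wild type arrays. The deletion arrays were all above the wild type arrays, but by a small margin. The difference was 0.09 ± 0.09 (log2, SE, n = 3 per strain; limma adjusted p = 0.543), with an unadjusted 95% interval of -0.11 to 0.29. BGL2, whose protein is a classical marker of secretory vesicles, read 13.48, 13.38 and 13.55 in the vps1 deletion arrays and 13.61, 13.44 and 13.46 in the wild type arrays. Its groups overlapped. The difference was -0.04 ± 0.10 (limma adjusted p = 0.843), with an interval of -0.26 to 0.19. The signals of both genes lie near the upper end of the scale, whose maximum was 14.55, and array signals can be compressed there. Whether that affects these probe sets was not tested.

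GAS3 and GAS5, the other GAS genes of vegetative cells, were lower in the vps1 deletion strain on every array. GAS3, a family member whose own transferase activity is less well established, read 11.26, 11.22 and 11.29 in the vps1 deletion arrays and 11.80, 11.52 and 11.65 in the wild type arrays. The gap between the nearest arrays of the strains was larger than the spread of the deletion arrays, whose SD was 0.036. GAS3 fell by 0.40 ± 0.10 (log2, SE, n = 3 per strain; limma adjusted p = 0.0433), to 0.759 of wild type. This call stood close to the threshold. It was lost when any 1 of the 6 arrays was left out, with an adjusted p between 0.0601 without wild type replicate 2 and 0.127 without vps1 deletion replicate 1, and with an intensity trend and robust prior (0.0508), while the difference stayed between -0.47 and -0.33. Between arrays of the same number the difference was -0.54, -0.30 and -0.36.

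GAS5, an active glucanosyltransferase of vegetative cells, had 11.74, 11.46 and 11.63 in the vps1 deletion arrays and 12.41, 11.93 and 11.98 in the wild type arrays. Wild type replicate 1 was the highest, and the strains did not overlap. The difference of -0.50 ± 0.15 (log2, SE, n = 3 per strain) did not pass the test (limma adjusted p = 0.0715), though it was larger in size than that of GAS3. The spread was wider, with an SD of 0.265 in wild type. The labels do not say that replicate numbers pair the arrays of the strains. The same difference passed once the replicate number entered the fit as a block (limma adjusted p = 0.00694). By number it was -0.67, -0.47 and -0.35. With the block 3 of the 9 genes fell and 2 rose, where 16.4% of all genes fell and 14.4% rose, 30.8% together.

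The lower values of GAS3 and GAS5 are relative to the shift of the arrays. On the deposited values GAS3 was at 11.52 in the vps1 deletion strain and 11.40 in wild type, a difference of 0.11 ± 0.10, and GAS5 differed by 0.03 ± 0.15, where the median gene was 0.51 higher in the deletion strain. As deposited 6 of the 9 genes rose and none fell, where 77.0% of all genes passed, 76.0% higher and 0.954% lower. The exceptions to the rise were GAS3, GAS5 and UTR2. Within the GAS family GAS1 minus GAS3 was 2.45 ± 0.03 in the vps1 deletion arrays and 1.96 ± 0.13 in the wild type arrays (SD, n = 3), a difference in change of 0.49 ± 0.08 (SE). GAS1 minus GAS5 gave 2.09 ± 0.14 in the deletion arrays and 1.51 ± 0.22 in the wild type arrays, a difference in change of 0.59 ± 0.15. An exact 2-sided permutation test gave p = 0.1 for each, the smallest possible (adjusted p = 0.133). GAS3 and GAS5 differed in change by 0.10 ± 0.11 (exact permutation p = 0.5, adjusted p = 0.5).

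**Figure D3:**
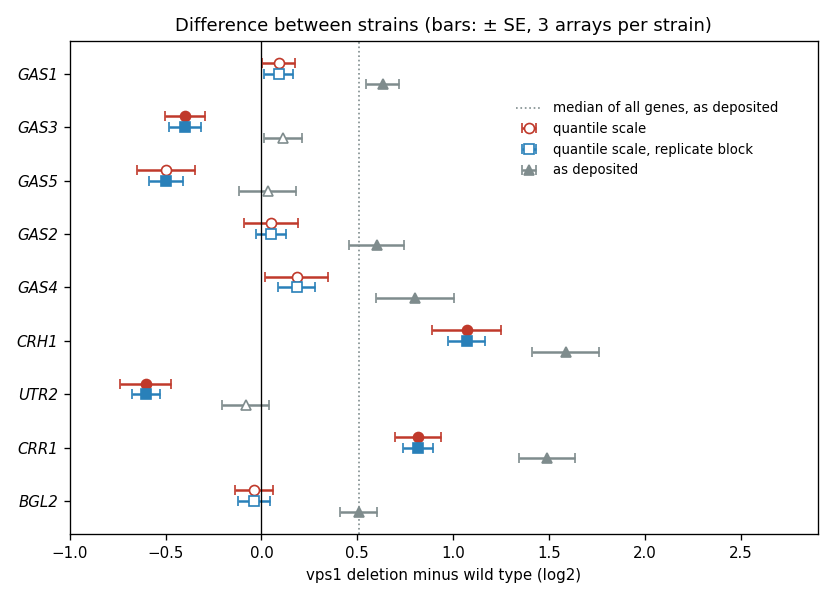
Difference between strains for each of the 9 genes (x axis, vps1 deletion minus wild type, log2), on the quantile scale, on that scale with a replicate block, and as deposited; bars are ± SE over 3 arrays per strain, and filled symbols passed an adjusted p of 0.05. CRH1 and CRR1 are filled and right of 0 on all 3 rows; UTR2, GAS3 and GAS5 are left of 0 on the quantile scale, and on the deposited values they are near 0, left of the dotted median of all genes at 0.51.

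GAS2 and GAS4, the spore wall members of the GAS family, did not pass the test. GAS2 read 8.15, 8.44 and 8.35 in the vps1 deletion arrays and 8.01, 8.44 and 8.35 in the wild type arrays, and by replicate number the strains differed by 0.14, -0.0004 and 0.0053. Its difference was 0.05 ± 0.14 (log2, SE, n = 3 per strain; limma adjusted p = 0.865), with an unadjusted 95% interval of -0.28 to 0.38. GAS4 read 5.28, 5.47 and 5.50 in the vps1 deletion arrays and 4.89, 5.50 and 5.32 in the wild type arrays. The lowest of these, in wild type replicate 1, was 1.30 above the background level. The difference of GAS4 was 0.18 ± 0.16 (limma adjusted p = 0.515), with an interval of -0.20 to 0.56. Of the 3 spore wall genes among the 9, CRR1 alone passed. A signal above background does not show by itself that a probe set reads its own transcript, and this was not tested.

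Other spore wall and middle sporulation genes varied in both signal and change in these vegetative cultures. Of 18 such genes measured, 2 rose, 1 fell and 15 did not pass, where 13.0% of all genes passed. Their median difference was 0.14, and 5 of the 18 were at or below background on at least 1 array. With the replicate block 6 rose and 3 fell, where 30.8% of all genes passed. OSW2, a gene of outer spore wall assembly, rose by 2.12 ± 0.15 (log2, SE; limma adjusted p = 1.77e-04), and NDT80, the transcription factor of middle sporulation genes, by 0.66 ± 0.13 (0.0160). SMK1, a sporulation MAP kinase, fell by 0.46 ± 0.11 (0.0352), and was 0.19 higher as deposited. A list of 16 meiosis and sporulation markers shares 10 genes with the previous list, NDT80 and SMK1 among them. Of the 16, 2 rose and 2 fell, and 4 rose and 4 fell with the block, where 13.0% and 30.8% of all genes passed. Outside the shared genes, HOP1 rose by 0.92 ± 0.18 (limma adjusted p = 0.0151) and SPO11 fell by 1.19 ± 0.20 (0.00944). As deposited these differed by 1.56 and -0.54. The summed log2 signal of the 16 was 91.3 to 93.4 in the vps1 deletion arrays and 88.5 to 94.4 in the wild type arrays. The markers SPS2, DIT2 and SPR28 were at or below background on at least 1 array, and none was below it on all arrays. All 7 a-cell markers were above background in both strains. Of them 5 fell, 7 with the block and 3 as deposited, where 6.28%, 16.4% and 0.954% of all genes fell. As deposited STE2, STE6 and MFA1 were 0.05, 0.13 and 0.22 higher in the deletion strain. The summed signal of the 7 on the quantile scale was 75.3 to 75.9 in the vps1 deletion arrays and 80.4 to 81.7 in the wild type arrays. The 4 alpha-cell markers were likewise above background on every array, MF(ALPHA)1 by as little as 0.15. Of these 4 markers 1 rose, 2 with the block, where 6.77% and 14.4% of all genes rose. The summed signal of the 4 was 24.3 to 25.1 in the vps1 deletion arrays and 24.1 to 24.6 in the wild type arrays. The part of cell type or stage in the changes of CRR1 and the others was not tested.

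Genes that make the substrates of these enzymes were taken in 3 lists of 7, 11 and 12 genes. Together 5 rose and 3 fell relative to the shift of the arrays, where 6.77% and 6.28% of all genes did. Among these calls ROM1, KRE5 and BNI4 stood close to the threshold, with a limma adjusted p between 0.0472 and 0.0494. As deposited no gene of the 3 lists fell, and 6, 10 and 10 rose, where 76.0% of all genes rose and 0.954% fell. Of 7 genes of beta-1,3-glucan synthesis 2 rose, with a median difference of 0.18. The other 5 did not pass, among them the synthase gene FKS1 at 0.10 ± 0.09 (log2, SE; limma adjusted p = 0.496). The synthase subunit GSC2 rose by 2.77 ± 0.14 (log2, SE; limma adjusted p = 4.12e-05) and ROM1, an exchange factor of the regulator Rho1, by 0.56 ± 0.15 (0.0494). Of 11 genes of beta-1,6-glucan synthesis, KRE6 rose by 0.60 ± 0.11 (0.0115) and KRE5 by 0.38 ± 0.10 (0.0494), while KNH1, a homologue of KRE9, fell by 0.82 ± 0.16 (0.0149), and the list median was 0.22. KNH1 was at -0.28 as deposited and did not pass there (limma adjusted p = 0.135). With the replicate block 5 of the 11 rose and 1 fell, where 14.4% of all genes rose and 16.4% fell. Of 12 genes of the synthesis and delivery of chitin, which CRH enzymes use as donor, CHS1 rose by 1.05 ± 0.10 (6.41e-04), and SKT5 and BNI4, which act with chitin synthase III, fell by 0.56 ± 0.12 (0.0252) and fell by 0.35 ± 0.09 (0.0472). The list median was -0.04, and as deposited SKT5 differed by -0.03 and BNI4 by 0.19, neither of which passed. On the quantile scale the other 9 of the 12 did not pass, among them the synthase gene CHS3 at 0.04 ± 0.09 (log2, SE; limma adjusted p = 0.802).

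Among 16 other glucanases, chitinases and wall enzymes of the SUN and SCW families, 2 rose and none fell, with a median difference of 0.09. The share of all genes that passed was 13.0%, 6.77% higher and 6.28% lower. SCW10, a glucanase-like wall protein of the same glycosidase family as BGL2, rose by 0.71 ± 0.09 (log2, SE; limma adjusted p = 0.00330), and NCA3, of the SUN family, by 0.88 ± 0.16 (0.0124). With the replicate block 4 of the 16 rose and 1 fell, where 30.8% of all genes passed. Of 13 genes that attach or remodel GPI anchors, which hold proteins such as Gas1 and Crh1 at the cell surface, 1 rose and 12 did not pass, with a median of 0.04. It was DFG5, a protein proposed to transfer GPI proteins into the wall, with a rise of 0.76 ± 0.09 (0.00159). With the block 2 of the 13 rose, where 14.4% of all genes rose.

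**Figure D4:**
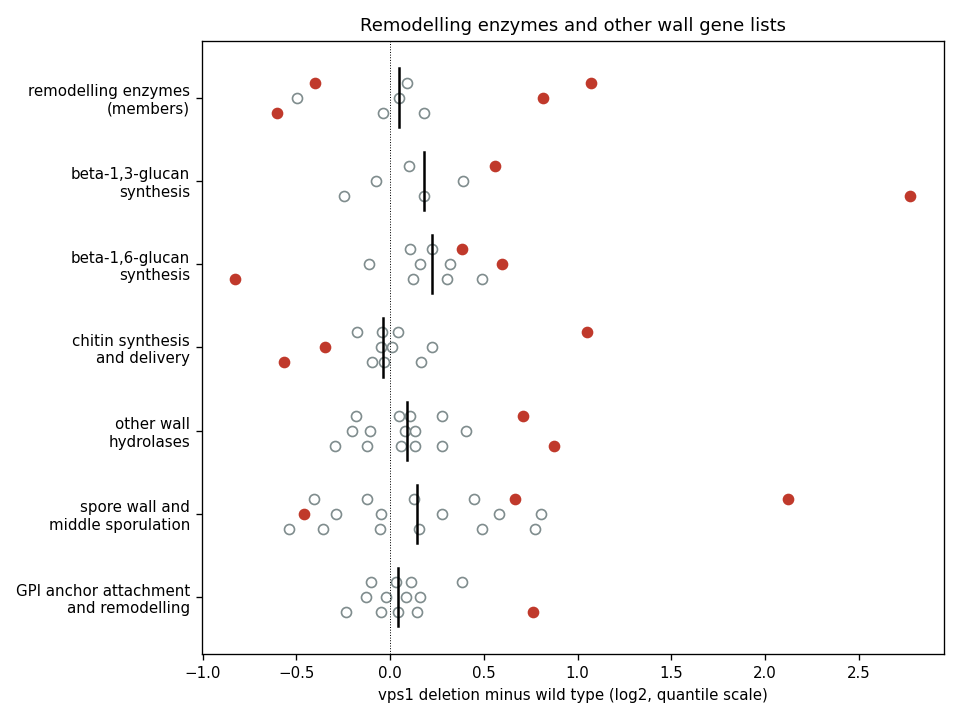
Difference between strains (x axis, vps1 deletion minus wild type, log2 on the quantile scale) for each of the 9 remodelling genes (top row) and the measured genes of 6 other wall-related lists; filled red points passed the test, open points did not, and the vertical bar is the list median. Medians lie between -0.04 and 0.22, and the remodelling genes have 2 filled points on either side of 0.

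The genes whose 6 array values ran closest to those of CRR1 and CRH1 came from other pathways. Closeness was the root mean square distance between values centred on each gene's mean, and strain difference and replicate deviations both enter it. Nearest to CRR1 were IGO1, a regulator of entry into quiescence, at a distance of 0.07, ATG22, a vacuolar amino acid exporter, at 0.10, and COS4, a DUP380 family member, at 0.10, where the median of all genes was 0.47. Nearest to CRH1 were PRB1, the vacuolar proteinase B, at 0.08, PIN3, an SH3 domain protein, at 0.09, and PRY2, a secreted sterol-binding protein, at 0.09, where the median was 0.62.

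The chromosomal neighbours of the 9 genes, taken by their order in the R64 annotation, passed the test in 3 of 18 cases, 16.7%, near the 13.0% of all genes. FRE1, a ferric reductase gene that lies beside CRR1, rose by 1.31 ± 0.29 (log2, SE; limma adjusted p = 0.0259), in the direction of CRR1. SIL1, an exchange factor of the ER chaperone Kar2, lies beside GAS5 and rose by 0.49 ± 0.10 (0.0215), opposite in sign to the difference of GAS5. BUB1, a spindle checkpoint kinase gene, lies beside CRH1 and fell by 0.44 ± 0.10 (0.0252), opposite to CRH1. The neighbours of UTR2 and GAS3 did not pass.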

How the data were processed

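The deposited values are log2 signals, 1 per probe set and array, for 10928 probe sets. Per the labels' protocols, 100 ng of total RNA went into each biotin-labelled cRNA. GCOS, RMA and limma appear in the submitters' processing notes; versions, roles and between-array scaling were not given in the sources used here. The array annotation gave 1 symbol to 7244 probe sets, of which 5498 matched a gene of the S288C R64 table by gene ID. The probe set with the highest mean represented each gene. All probe sets were quantile normalized over the 6 arrays, and vps1 deletion minus wild type was tested with lmFit and eBayes (limma 3.58.1 under R 4.3.3, 2-sided), with Benjamini-Hochberg adjustment over 5449 genes and a threshold of 0.05. The fit was tested on simulated data.

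Members and lists were chosen with earlier results of these data known. Genes named outside the members are up to 4 called genes per list with the smallest p, the 3 genes nearest to each of 2 members, and called neighbours, which were chosen after their values were seen. Some cell type and sporulation markers are named beside these, for values near background or for their sign as deposited. HOP1 and SPO11 are named because they passed the test, and FKS1 and CHS3 as synthase genes that did not. Deviations from strain means correlated at 0.67, 0.65 and 0.29 between arrays of the same replicate number. The labels do not say what arrays of the same number share, and correlations between different numbers are not given here. Whether the numbers pair the arrays is therefore not settled. Sequences were not analysed here. The number of arrays limits the precision, as they have no depth of reads. P-values measure the spread between cultures of 1 strain each. Alternatives were 4 other scalings (as deposited, array medians centred, quantile over yeast genes, cyclic loess), a filter on dim genes, the lowest-mean probe set, a trend and robust prior, the replicate block, and leaving out each array.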

Additional observations from a re-analysis of the deposited data

How the results depend on the processing

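CRH1 and CRR1 kept direction and call under all 14 alternatives, as did VPS1. With the values as deposited 4194 genes passed, 4142 higher and 52 lower, against 711, 369 higher and 342 lower, on the quantile scale; 6 of the 9 members rose and 0 fell, and 66 genes of the 6 other wall lists passed against 14. There GAS1, GAS2 and GAS4 passed at 0.63, 0.60 and 0.80, BGL2 turned to 0.51, GAS3 to 0.11 and GAS5 to 0.033, and UTR2 was no longer called at -0.082. Centring arrays on their medians gave 256 higher and 535 lower with a median of -0.15 over all genes, and turned GAS1 to -0.028 and GAS2 to -0.059; cyclic loess turned BGL2 to 0.0072. GAS1, GAS2, GAS4 and BGL2 passed only as deposited. The trend and robust prior left 1 member that fell, GAS3 being lost at a difference of -0.40. The replicate block passed 1676 genes and 27 genes of the wall lists, added GAS5 at -0.50 and changed no other member's call. Leaving out each array gave 315 to 791 genes (359, 445 and 315 without vps1 deletion replicates 1, 2 and 3, and 353 without wild type replicate 2), 2 rising members each time, 0 to 1 falling members and 6 to 17 genes of the wall lists. Over these omissions the differences were 0.91 to 1.25 for CRH1, 0.74 to 0.92 for CRR1, -0.70 to -0.52 for UTR2, -0.47 to -0.33 for GAS3, -0.59 to -0.35 for GAS5, 0.05 to 0.12 for GAS1, -0.081 to 0.14 for GAS2, 0.0091 to 0.32 for GAS4 and -0.080 to 0.014 for BGL2; fewer arrays enter each such fit. GAS2 turned to -0.015 without vps1 deletion replicate 2 and -0.081 without wild type replicate 1, and BGL2 to 0.0069 and 0.014 there. The cause of the other changes was not tested.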
